A study of Mus musculus with 16 samples.

Results

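Mast cells and basophils are rare granulocytes that carry IgE and release histamine, proteases and lipid mediators. Chromatin accessibility at 6 genes that mark them, Cpa3, Ms4a2, Fcer1a, Fcer1g, Hdc and Il1rl1, was read from ATAC-seq peak lists of lineage-depleted mouse bone marrow. ATAC-seq uses the Tn5 transposase to cut and tag open DNA, so that a peak marks a stretch of accessible chromatin. Peaks of 16 libraries were merged, and regions with a peak in at least 2 libraries were kept. Of the 83972 such consensus regions, 31 overlapped the RefSeq body of a member gene or the 10 kb on either side of it.

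The marrow came from male C57Bl/6 mice and had been depleted with antibodies against CD3, CD4, B220, Ter119 and Gr1. The labels call the remaining cells haematopoietic stem cells, but such a fraction also holds committed progenitors, and neither mast cells nor basophils were selected or removed by these antibodies. The 4 groups were diabetic IL-1β, diabetic baseline, control IL-1β and control baseline, with 4 libraries each. Diabetic mice had received streptozotocin, a toxin of insulin-producing beta cells, and control mice were non-diabetic. The age of the mice and the time since streptozotocin are not given in the sources used here. Each mouse sample was divided, with 1 portion kept 6 h in culture with 10 ng/mL interleukin-1β (IL-1β) and the other lysed at once as baseline. IL-1β and 6 h of culture therefore cannot be told apart. Libraries of the same number within a phenotype come from 1 mouse sample.

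The high-affinity IgE receptor is built from an alpha chain that binds IgE (Fcer1a), a beta chain that amplifies the signal (Ms4a2) and a gamma chain with the signalling motif (Fcer1g). The alpha and beta chains mark mast cells and basophils in mice, while the gamma chain also serves other Fc receptors of myeloid cells and natural killer cells. Histidine decarboxylase (Hdc) makes histamine and is also expressed by myeloid-biased stem and progenitor cells in mouse marrow. Carboxypeptidase A3 (Cpa3) is a protease of mast cell granules that is already expressed in their progenitors. Il1rl1 encodes ST2, the receptor of interleukin-33, on mast cells, basophils and group 2 innate lymphoid cells. GATA2 and GATA1 are transcription factors of both lineages, and many of their target genes hold GATA motifs.

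Promoter windows, from 250 bases before to 50 bases after a RefSeq start site, separated the genes into an open and a closed set. A peak lay over the window in 16 of 16 libraries at Fcer1g and Hdc and in 15 at the first window of Il1rl1. It lay over the window in 1 library at Cpa3, in 1 at Fcer1a and in 0 at Ms4a2. Among 17492 protein-coding genes with a window, 47.78% had a peak over it in all 16 libraries and 41.08% in none. The 5 windows that follow are shown because they carry this contrast, 3 open and 2 closed. They are RefSeq sequences of build GRCm38.p6, read 5′ to 3′ on the gene's strand, with GATAA on either strand (TTATC when read on the other) in capitals. Hdc lies at chr2:126618629-126618928 (minus strand), Fcer1g at chr1:171234300-171234599 (minus), Il1rl1 at chr1:40429320-40429619 (plus), Cpa3 at chr3:20242132-20242431 (minus) and Ms4a2 at chr19:11623670-11623969 (minus).
Hdc: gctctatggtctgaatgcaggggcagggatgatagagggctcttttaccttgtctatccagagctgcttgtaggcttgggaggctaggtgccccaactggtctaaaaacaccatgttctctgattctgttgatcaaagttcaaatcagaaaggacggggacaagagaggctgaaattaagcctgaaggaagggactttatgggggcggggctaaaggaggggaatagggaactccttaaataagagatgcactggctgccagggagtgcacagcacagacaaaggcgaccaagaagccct
Fcer1g: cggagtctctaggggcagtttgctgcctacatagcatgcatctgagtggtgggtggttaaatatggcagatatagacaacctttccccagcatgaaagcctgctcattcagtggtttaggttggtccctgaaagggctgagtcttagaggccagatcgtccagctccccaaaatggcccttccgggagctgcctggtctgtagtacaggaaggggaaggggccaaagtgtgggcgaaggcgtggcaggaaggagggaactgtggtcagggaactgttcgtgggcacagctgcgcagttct
Il1rl1: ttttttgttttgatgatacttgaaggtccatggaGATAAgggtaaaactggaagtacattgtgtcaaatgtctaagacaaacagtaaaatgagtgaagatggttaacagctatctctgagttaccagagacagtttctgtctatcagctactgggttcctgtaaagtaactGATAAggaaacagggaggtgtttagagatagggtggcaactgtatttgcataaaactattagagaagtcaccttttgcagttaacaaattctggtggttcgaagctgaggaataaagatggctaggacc
Cpa3: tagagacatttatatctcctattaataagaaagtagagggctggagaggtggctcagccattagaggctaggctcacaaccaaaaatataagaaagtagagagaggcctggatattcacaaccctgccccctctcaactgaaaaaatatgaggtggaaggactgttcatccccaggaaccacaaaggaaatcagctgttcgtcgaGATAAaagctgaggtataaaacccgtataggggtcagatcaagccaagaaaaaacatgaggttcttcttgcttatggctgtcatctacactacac
Ms4a2: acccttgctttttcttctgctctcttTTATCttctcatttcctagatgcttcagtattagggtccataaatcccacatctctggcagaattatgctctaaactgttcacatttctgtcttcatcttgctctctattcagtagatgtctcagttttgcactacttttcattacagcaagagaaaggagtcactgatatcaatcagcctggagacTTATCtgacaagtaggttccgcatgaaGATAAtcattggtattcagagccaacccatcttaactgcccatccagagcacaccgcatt

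The windows of Hdc and Fcer1g, open in every library, held 0 matches to GATAA. The closed window of Ms4a2 held 3, at 224, 37 and 10 bases before the start site, and that of Cpa3 held 1, at 45 bases before it. Fcer1a, with a peak in 1 library, also held 1. The open first window of Il1rl1 held 2, at 216 and 79 bases before its start site, and a second Il1rl1 window with no peak in any library held 1. Over all 21238 windows 22.5% held GATAA, with 13.7% of those open in all libraries and 32.6% of those open in none. Base composition differed between the same sets, with a median G+C content of 62.3% in open and 48.7% in closed windows. The member windows had 50.7% at Hdc, 55.7% at Fcer1g, 38.7% at Il1rl1, 43.3% at Cpa3 and 41.0% at Ms4a2. Its part in the motif counts was not tested.

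AGGAAG, a core of ETS factor sites, occurred 2 times at Fcer1g and 1 time at Hdc and was not found in the other windows; 34.4% of all windows held it. TGTGGT, a core of RUNX factor sites, occurred 1 time each at Cpa3, Fcer1a, Fcer1g and the second Il1rl1 window, against 15% of all windows. CANNTG, the E-box, was found in 69.0% of all windows and in each member window except that of Ms4a2. Both strands were searched, and no match overlapped a GATAA match. A match describes letters in a window and does not show that a factor was bound.

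Promoters of markers of other marrow cells were read in the same way, against the 47.78% of all genes with a peak in every library. A peak lay over the promoter in all 16 libraries for 4 of 6 stem and progenitor markers, 3 of 6 neutrophil, 2 of 4 erythroid, 1 of 3 monocyte, 1 of 5 dendritic cell and 0 of 3 megakaryocyte markers. An open promoter in a mixed fraction does not show that the cell type itself was present. No library had a peak over the promoter for 4 of 4 B cell, 3 of 4 eosinophil and 2 of 5 dendritic cell markers. The same held for 1 of 6 stem and progenitor and 1 of 4 T and NK cell markers, against 41.08% of all genes. It held for 0 neutrophil, monocyte, erythroid or megakaryocyte markers. The part of the antibody depletion in these counts was not tested. Peaks per library numbered 37543 to 72525. The read depth itself is not given, and it is reflected in the lowest expected reads per window, 0.856 in diabetic baseline 4 to 1.71 in control baseline 3. The median summit over shared regions held 27 reads in diabetic baseline 4 and 58 in control baseline 3. Diabetic baseline 4 was thus lowest in both measures, though control IL-1β 2 came close in its median summit, at 29 reads, and had the fewest peaks (37543). The data are from whole cell populations, in which fewer cells of a type and less open chromatin per cell cannot be told apart.

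Of the 31 member regions, 9 had a peak in all 16 libraries, namely 3 at Fcer1g, 4 at Hdc and 2 at Il1rl1. Among all consensus regions 29.7% did. Regions are numbered along each gene from its upstream side, and positions are distances of the median summit from the start site. Fcer1g had 6 regions, Hdc 7 and Il1rl1 9, while Cpa3 and Ms4a2 had 4 each and Fcer1a had 1. The plot of peaks by library and the maps along each gene show the difference between the receptor's gamma chain and its other chains.

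**Figure D1:**
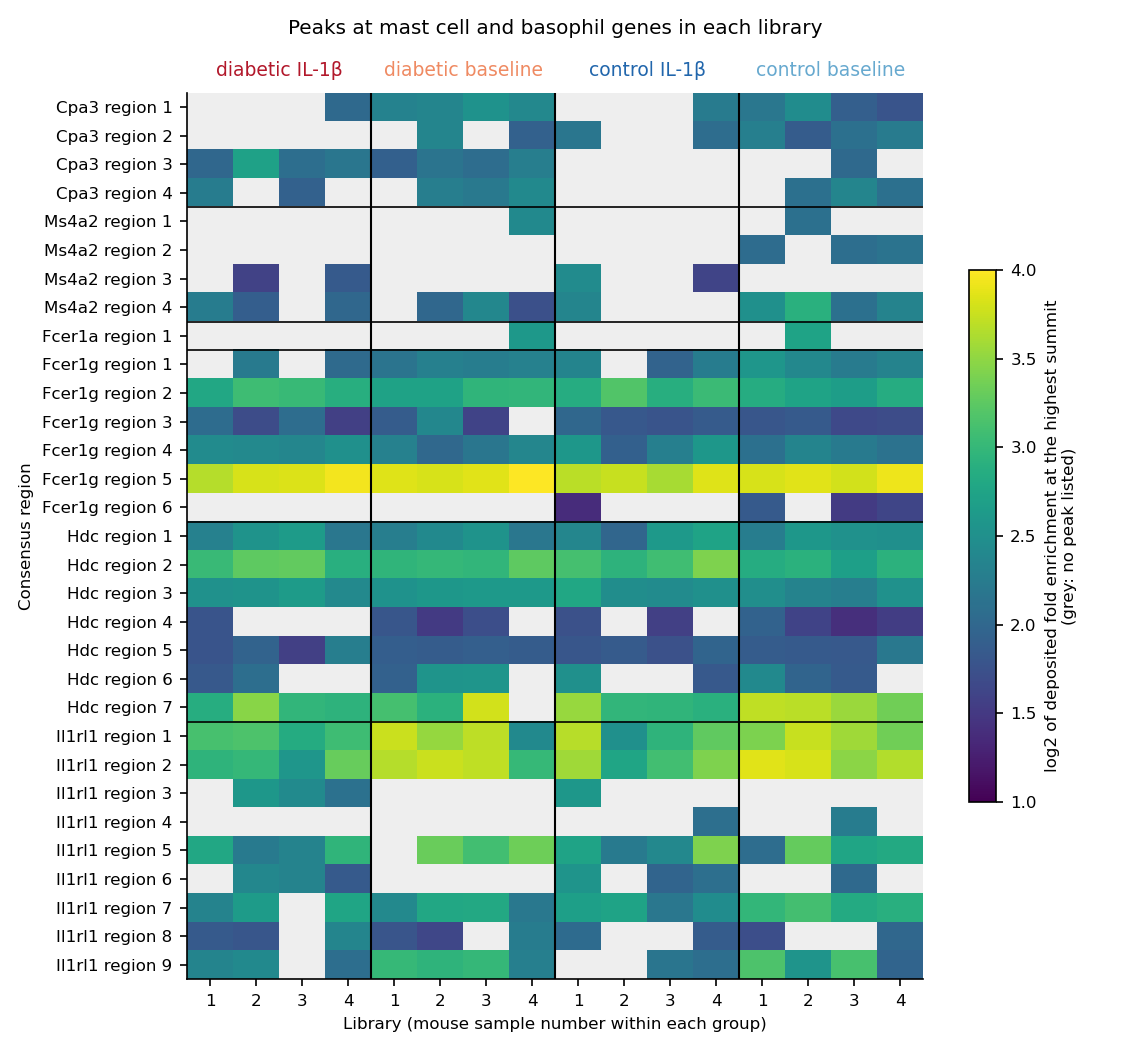
Each row is 1 of the 31 consensus regions and each column 1 of the 16 libraries, grouped as diabetic IL-1β, diabetic baseline, control IL-1β and control baseline; colour gives log2 of the deposited fold enrichment at the highest summit and grey marks no listed peak. The rows of Fcer1g, Hdc and Il1rl1 include the 9 regions coloured in every column, whereas Cpa3, Ms4a2 and Fcer1a have none, and Cpa3 region 3 is coloured in 8 diabetic columns and 1 control column.

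**Figure D2:**
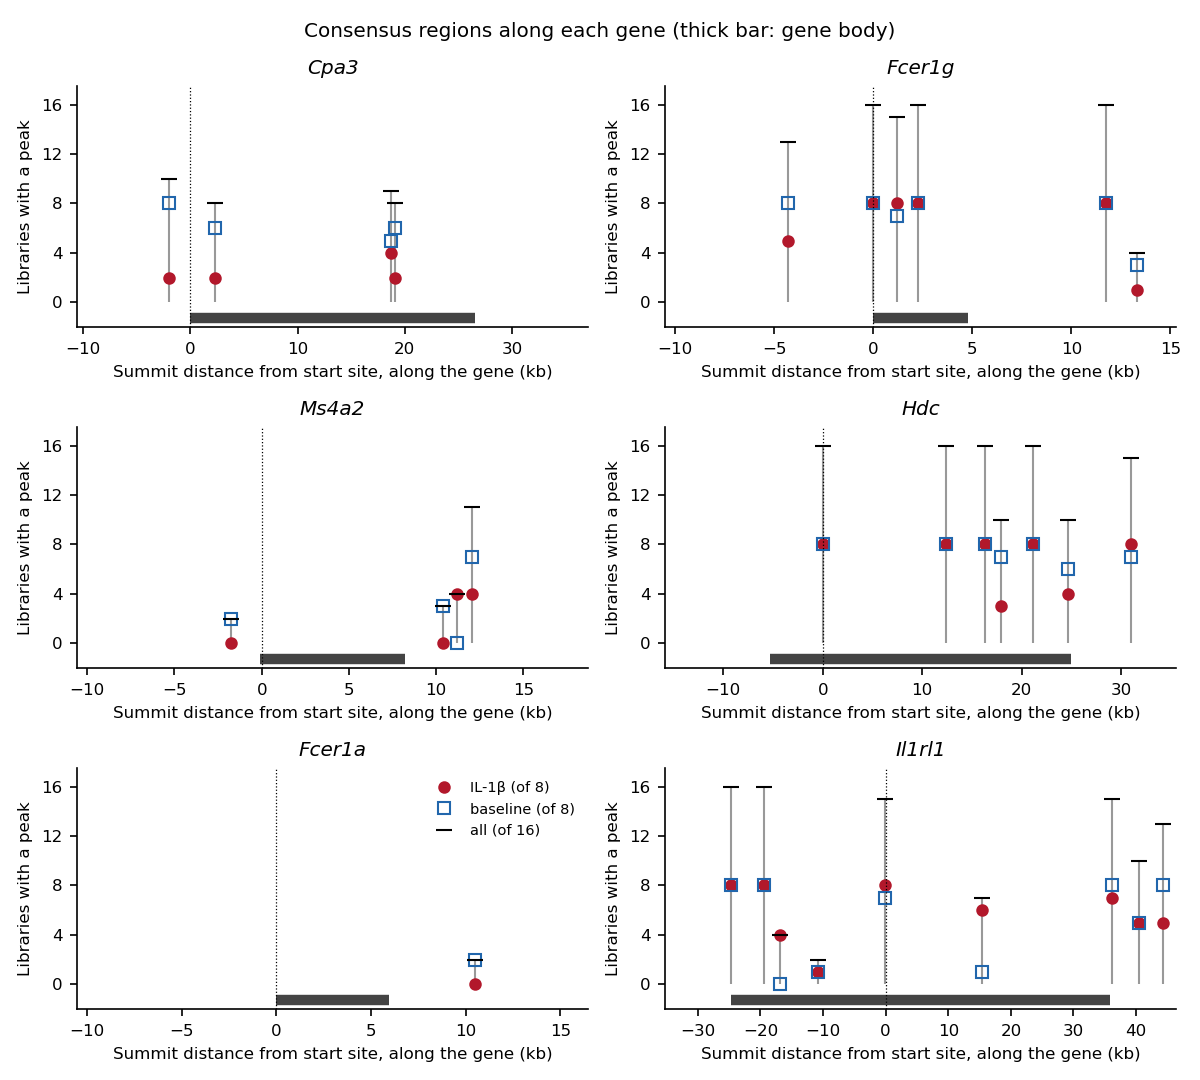
Libraries with a peak (vertical axis) are plotted against the distance of the region's median summit from the start site in kb, along the gene, for each of the 6 genes; red circles count IL-1β libraries (of 8), blue squares baseline libraries (of 8) and black ticks all 16, and the thick bar is the gene body. The start sites of Fcer1g and Hdc carry a peak in all 16 libraries and those of Cpa3, Ms4a2 and Fcer1a carry no consensus region.

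The receptor's alpha and beta chain genes were almost without peaks. Fcer1a had 1 region, 10499 bp downstream of its start site and outside its body, called in diabetic baseline 4 and control baseline 2. Ms4a2 had no region within its body; its most frequent one, region 4, lay 12060 bp downstream, was called in 11 libraries and also lies within 10 kb of Ms4a6d. The gamma chain gene differed from both. Its start-site region (region 2, chr1:171234056-171234766 of mm10) lay 3 bp from the start site. Its region 4 (chr1:171231853-171232299) lay 2269 bp into the gene, and its region 5 (chr1:171222269-171222996) lay 11756 bp downstream, outside the body and also within 10 kb of Apoa2, Nr1i3 and Tomm40l. Region 5 had the highest fold enrichment of all member regions, 12.2 to 17.2 over the local background (median 14.3), against 6.38 to 9.09 at the start site.

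Hdc was the most consistently open member. Its start-site region (region 1, chr2:126618397-126619558) lay 3 bp from the start site, and regions 2, 3 and 5 lay inside the gene 12388, 16281 and 21118 bp from it. Region 2 (chr2:126605997-126606726) ranked highest among them, with a fold enrichment of 6.48 to 10.7. The median of its reads stood at percentile 93.4 of the regions called in a library, against 62.2 for region 1. Region 1 also lies within 10 kb of Gabpb1, and region 5 within 10 kb of Slc27a2, so that assignment to Hdc rests on position alone.

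At Il1rl1 both regions with a peak in every library overlapped the RefSeq gene body and lay upstream of both start sites that have a promoter window. Region 1 (chr1:40404563-40405069) lay 24762 bp upstream of the first of them and covered the upstream end of the RefSeq gene body, which begins at 40404864. Region 2 (chr1:40409897-40410321) lay inside the gene body, 19482 bp upstream of the same start site. Their fold enrichments were 5.39 to 13.5 and 5.97 to 14.6. The region at that start site (region 5, 154 bp upstream) was called in 15 libraries, all except diabetic baseline 1, with a fold enrichment of 4.22 to 10.7.

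Cpa3 had only weak regions. Region 1 lay 1944 bp upstream of the start site, region 2 lay 2274 bp into the gene, and regions 3 and 4 lay 18691 and 19116 bp into it. No summit of these 4 regions held more than 15 reads. Their median read percentile within a library was between 7.56 and 13.0, near the lower limit of listing, which was 5 to 7 reads per library.

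The first comparison asks what 6 h with IL-1β did to these regions. Reads at the highest summit of each region were recovered from the deposited fold and p-value, scaled to equal medians across libraries and compared with limma over the 24955 regions called in all 16 libraries, with Benjamini-Hochberg adjustment. Of the 9 member regions, 1 fell and 1 rose after IL-1β. Over all regions 3.4% fell and 6.42% rose, or 9.82% in either direction. At an unadjusted p under 0.05 (limma) were 6 of the 9 member regions, against 22.7% of all regions. Neither count was tested against its share, and 9 regions are few. With the mouse as a block 2 members rose and 2 fell, against 9.61% and 5.33% of all regions, and with libraries scaled by background 0 rose and 4 fell, against 0.813% and 9.39%. The median log2 change was -0.23 over the 9 regions and 0.03 over all. The 4 Hdc regions and both Il1rl1 regions had negative changes, and the 3 Fcer1g regions positive ones. These directions did not hold in every alternative. Fcer1g region 5 turned to -0.13 when libraries were scaled by background. All 4 Hdc regions turned positive, with changes of 0.10 to 0.32, when the deposited fold replaced reads.

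The Hdc start-site region lost reads after IL-1β. It held 28.6, 22.4, 25.8 and 16.5 scaled reads in diabetic IL-1β libraries 1 to 4, against 43.3, 29.9, 32.8 and 17.4 in diabetic baseline libraries 1 to 4. In control mice it held 18.0, 20.3, 29.7 and 24.8 scaled reads after IL-1β, against 32.2, 45.9, 39.3 and 42.2 at baseline. The control groups did not overlap, while in diabetic mice the baseline library of mouse 4 lay among the IL-1β libraries. All 8 mice had fewer reads after IL-1β. The share of all regions with such patterns was not counted. The mean was 23.3 ± 4.82 scaled reads in IL-1β libraries and 35.4 ± 9.29 in baseline libraries (SD, n = 8 each), and limma gave a log2 change of -0.58 with an SE of 0.17 (adjusted p = 0.0288). Blocking on the mouse gave an adjusted p of 0.00641, and over all alternatives it ran from 0.000785 to 0.373. The highest came with the deposited fold in place of reads, where the log2 change was positive, at 0.16. The call ended without any 1 of 8 libraries (diabetic IL-1β 4, diabetic baseline 1 and 3, control IL-1β 1 and 2, control baseline 2, 3 and 4), with adjusted p between 0.0527 and 0.0708 and log2 changes between -0.58 and -0.49, and it held without each of the other 8.

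The intragenic regions of Hdc moved the same way by less. Region 3 held 74.3, 49.5, 60.1 and 44.3 scaled reads in diabetic IL-1β libraries, against 97.6, 72.0, 77.7 and 48.0 in diabetic baseline libraries. It held 68.7, 63.6, 59.5 and 51.7 in control IL-1β libraries, against 75.4, 76.0, 75.8 and 84.4 in control baseline libraries. Again the control groups did not overlap and all 8 mice were lower after IL-1β. How many of all regions share such patterns between groups or mice was not counted, in reads or in local background. The log2 change at region 3 was -0.36 (SE 0.12), and the limma adjusted p was 0.0546, or 0.0140 in the fit blocked on mouse. Without diabetic baseline 4 it was -0.45 (adjusted p = 0.00077), and without diabetic IL-1β 1 it was -0.43 (adjusted p = 0.0208). Regions 2 and 5 had log2 changes of -0.23 (SE 0.11) and -0.24 (SE 0.14) and did not pass (adjusted p = 0.21 and 0.336).

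**Figure D3:**
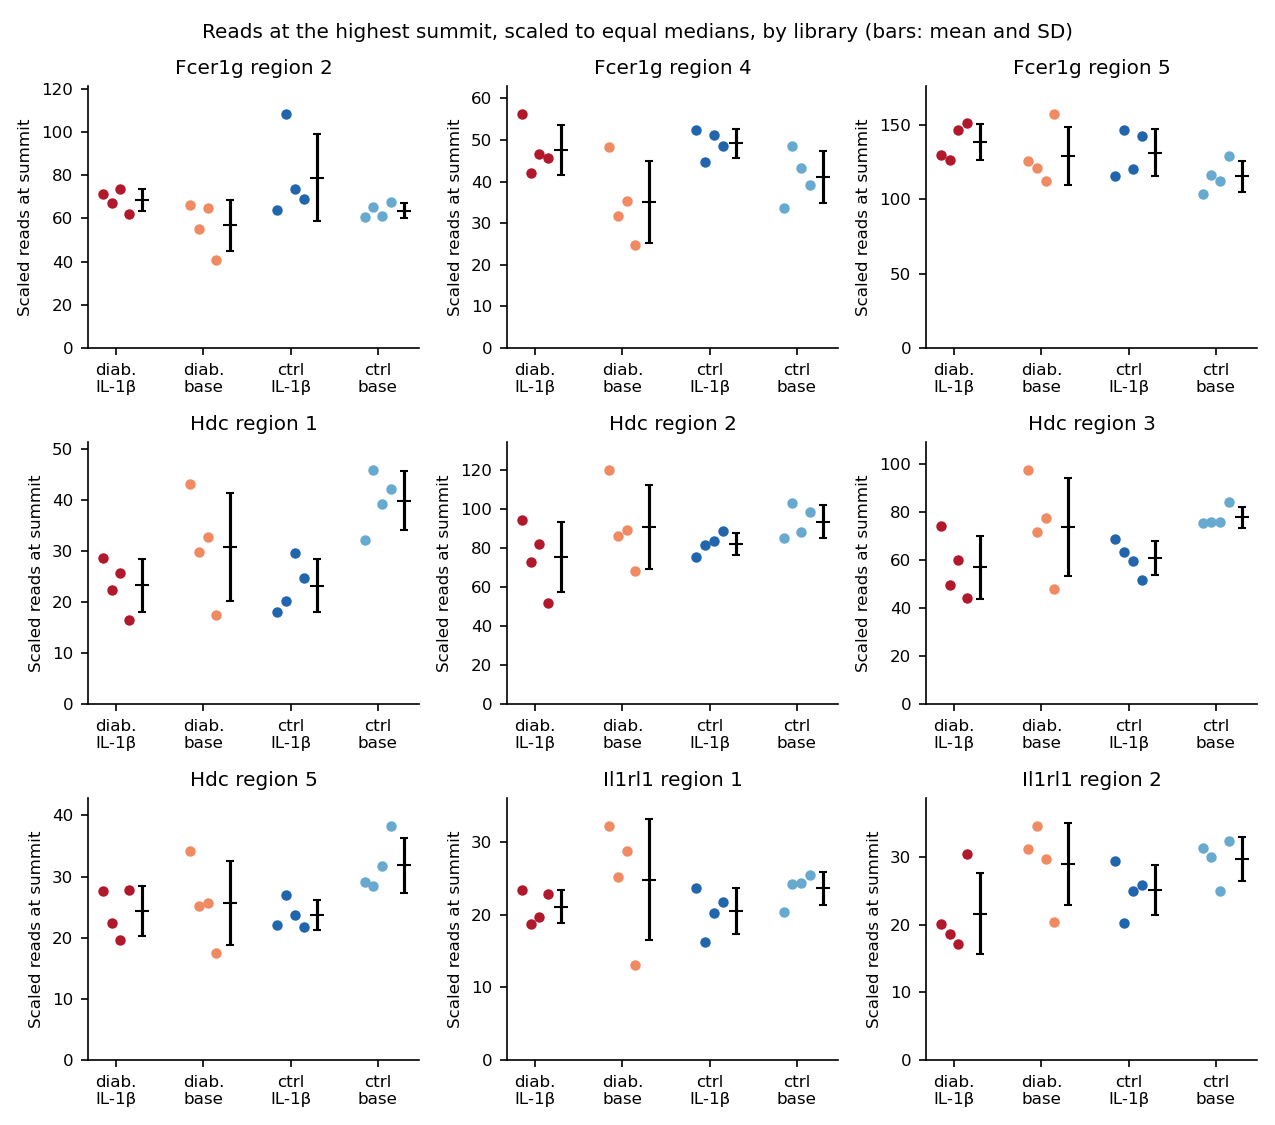
Scaled reads at the highest summit (vertical axes, starting at 0) in each library of the 4 groups for the 9 regions with a peak in every library; black bars give the mean and SD of 4 libraries. At Hdc region 1 the 4 control IL-1β libraries, at 18.0 to 29.7 scaled reads, lie below the 4 control baseline libraries, at 32.2 to 45.9.

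The local background around Hdc also fell after IL-1β, with larger log2 changes than the summit reads; the difference between the measures was not tested. Local background is the number of reads that the peak caller expected at a summit from the DNA around it, and it was divided here by the library's lowest background. At Hdc region 1 it was 3.07, 2.57, 1.85 and 1.69 in diabetic IL-1β libraries, against 5.82, 4.11, 4.50 and 2.16 in diabetic baseline libraries. In control mice it was 2.84, 2.34, 3.06 and 2.50 after IL-1β, against 6.80, 7.68, 5.46 and 5.14 at baseline. The control groups did not overlap, and in diabetic mice diabetic baseline 4 alone lay within the range of the IL-1β libraries. Such patterns were not counted over all regions. Group means were 2.30 ± 0.643 and 4.15 ± 1.51 in diabetic IL-1β and diabetic baseline libraries, and 2.68 ± 0.326 and 6.27 ± 1.18 in control IL-1β and control baseline libraries (SD, n = 4 each).

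After scaling to equal medians, limma gave a log2 change of -0.86 at Hdc region 1 (SE 0.15, adjusted p = 0.000508), and without that scaling -1.01 (adjusted p = 0.00295). It was -0.58 at region 2 (adjusted p = 0.00262), -0.56 at region 3 (adjusted p = 0.00222) and -0.35 at region 5 (adjusted p = 0.0291). All 8 mice were lower after IL-1β at regions 1, 2 and 3, and 7 of 8 at region 5, which was not counted over all regions. Over the 9 member regions 4 fell and 0 rose, against 8.74% and 10.2% of all 24955 regions. Without the scaling the same 4 fell, while over all regions 2345 fell and 348 rose and the median change was -0.15. After scaling, 35 regions (0.14%) had a change as low as that of Hdc region 1, and 174 (0.697%) one as low as that of region 2. Without any 1 library the calls at regions 1, 2 and 3 held. That at region 5 ended without diabetic IL-1β 2, 3 or 4, diabetic baseline 3, control IL-1β 4 or control baseline 2 or 3 (adjusted p = 0.0516 to 0.0678).

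This fit was added after the reads had been seen. The regions are not independent, since windows around neighbouring summits share DNA and include the peaks themselves. The fallen regions 1 and 5 also lie within 10 kb of Gabpb1 and Slc27a2. Farther off, within 100 kb of the start site, 3 other regions had a peak in every library, and their local background changed by -0.09, 0.02 and 0.04 on the log2 scale, with 0 of 3 past the test (limma; adjusted p = 0.394, 0.819 and 0.795). The nearest of them lay 57024 bp upstream of the start site, and they were not tested against the Hdc regions.

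**Figure D4:**
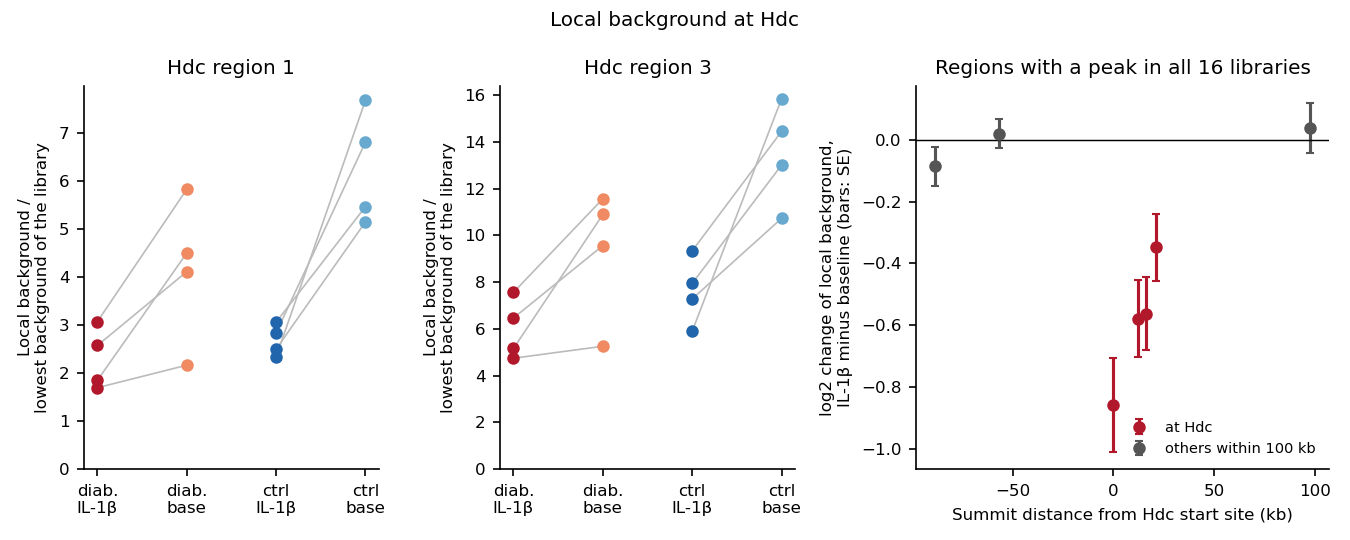
The left and middle panels plot the local background over the library's lowest background at Hdc regions 1 and 3 in each library, with grey lines joining the portions of 1 mouse; the right panel plots the log2 change, IL-1β minus baseline, with its standard error for the 7 regions within 100 kb of the Hdc start site that had a peak in all 16 libraries. The 4 Hdc regions lie between -0.86 and -0.35 and the 3 others between -0.09 and 0.04.

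The deposited fold enrichment divides reads by local background, and its groups overlapped at the Hdc start site. At region 1 it was 4.99, 5.80, 6.26 and 4.58 in diabetic IL-1β libraries, against 4.87, 5.37, 5.83 and 4.56 in diabetic baseline libraries. In control libraries it was 5.20, 3.97, 6.18 and 6.67 after IL-1β, against 4.82, 6.01, 5.71 and 5.64 at baseline. Tested in place of reads, it gave a log2 change of 0.16 at region 1 (limma adjusted p = 0.373) and 0.32 at region 2 (adjusted p = 0.0476). At regions 3 and 5 the changes in fold were 0.18 and 0.10. The direction at regions 1, 2, 3 and 5 thus depends on whether a summit is read by itself or against the DNA around it. Outside the gene body, at region 7, the fold was 8.58 ± 1.71 in 8 IL-1β libraries and 11.1 ± 2.41 in the 7 baseline libraries with a peak (SD), which was not tested.

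Taken by phenotype, 0 of 9 member regions passed in reads in diabetic mice, against 2.83% of all regions, and 0 of 9 in control mice, against 2.75%, with 3 of 9 at an unadjusted p under 0.05 in each phenotype (limma), against 13.9% of all regions in diabetic and 15.3% in control mice. In local background 0 of 9 passed in diabetic mice, against 6.23% of all regions, with 3 of 9 and 5164 of all 24955 regions at an unadjusted p under 0.05. Of the same 9 regions 3 fell in control mice (Hdc regions 1, 2 and 3), against 3.77% fallen and 8.03% changed in either direction. The local background at Hdc region 1 changed by -0.67 in diabetic mice (SE 0.21, limma adjusted p = 0.0663, 0.0194 with the mouse as a block) and by -1.04 in control mice (SE 0.21, adjusted p = 0.00462). Reads at region 1 changed by -0.36 in diabetic mice (adjusted p = 0.575) and by -0.80 in control mice (adjusted p = 0.0738, 0.0184 with the block). Neither difference between phenotypes passed the test (limma; reads 0.44, SE 0.34, adjusted p = 1.0; background 0.37, SE 0.30, adjusted p = 1.0). Of the 9 member regions 0 had an unadjusted p under 0.05 in the test of that difference in reads, and 416 of 24955 did. These values move with diabetic baseline 4. Without it the background at region 1 changed by -0.91 in diabetic mice (limma adjusted p = 0.00204), and the difference between phenotypes was 0.13 in background and 0.18 in reads. Reads at region 1 then passed in control mice (log2 change -0.80, limma adjusted p = 0.00984) and not in diabetic mice (-0.61, adjusted p = 0.105).

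Fcer1g moved in the other direction. Its region 4, inside the gene, held 56.2, 42.1, 46.6 and 45.6 scaled reads in diabetic IL-1β libraries, against 48.3, 31.8, 35.2 and 24.7 in diabetic baseline libraries. It held 52.3, 44.7, 51.2 and 48.6 in control IL-1β libraries, against 33.8, 48.4, 43.3 and 39.3 in control baseline libraries. The groups overlapped in both phenotypes, and 7 of 8 mice were higher after IL-1β. The log2 change was 0.37 (SE 0.12, limma adjusted p = 0.0454, or 0.0150 blocked on mouse). The call held without diabetic IL-1β 2, diabetic baseline 1 or 4 or control baseline 2 and ended without each of the other 12 libraries (adjusted p = 0.0508 to 0.103, log2 change 0.33 to 0.39). Of the 7 other alternatives 5 kept the call, and scaling by background instead of by medians was among those that ended it.

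At the Fcer1g start site 8 of 8 mice gained reads with IL-1β, and how many of all regions did so was not counted. It held 62.0 to 73.6 scaled reads in diabetic IL-1β libraries, against 40.7 to 66.4 in diabetic baseline libraries, and 63.8 to 108 in control IL-1β libraries, against 60.5 to 67.7 in control baseline libraries. The groups overlapped in both phenotypes. The log2 change of 0.29 (SE 0.11) did not pass without the block (limma adjusted p = 0.0899) and passed with it (adjusted p = 0.0341). Region 5 changed by 0.15 (SE 0.08, adjusted p = 0.298). Local background at Fcer1g had no fixed direction: the log2 changes at regions 2, 4 and 5 were 0.02, 0.08 and 0.14 after scaling to equal medians and -0.13, -0.07 and -0.02 without it. Region 5 missed the test after scaling (limma adjusted p = 0.0533), passed with the block (adjusted p = 0.028) and passed without diabetic baseline 4 (log2 change 0.16, adjusted p = 0.00369), where regions 2 and 4 turned to -0.09 and -0.03.

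**Figure D5:**
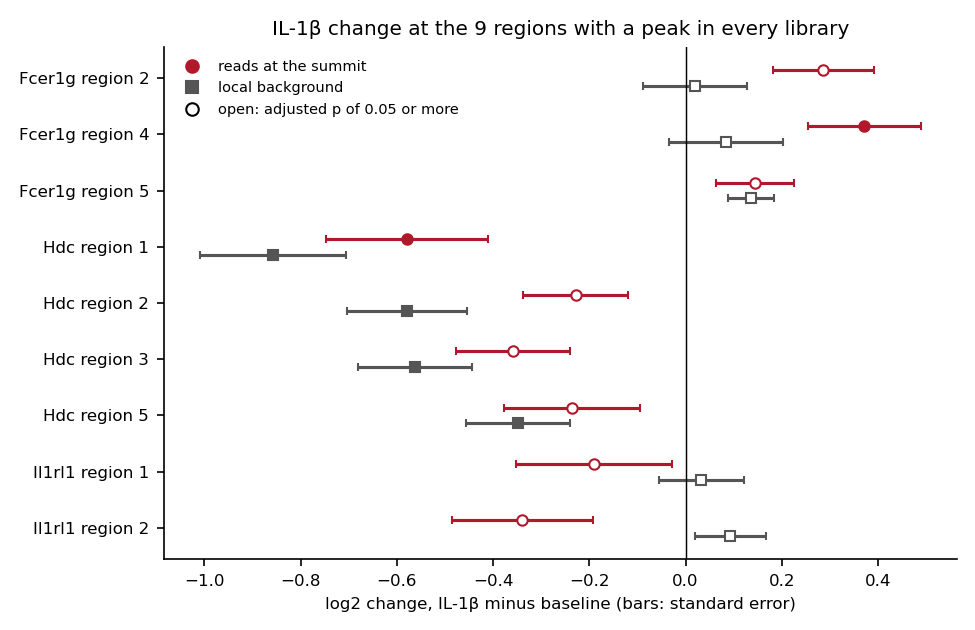
The log2 change, IL-1β minus baseline, with its standard error is plotted for reads at the summit (red circles) and local background (grey squares) at the 9 member regions with a peak in every library; filled symbols have a limma adjusted p under 0.05. Both measures lie below 0 at the 4 Hdc regions, with local background the lower, and above 0 at the 3 Fcer1g regions, where local background lies below 0 if not scaled to equal medians and reads at region 5 do if scaled by background.

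Il1rl1 region 2 held 20.2, 18.7, 17.2 and 30.4 scaled reads in diabetic IL-1β libraries, against 31.2, 34.6, 29.6 and 20.4 in diabetic baseline libraries. In control mice it held 29.4, 20.3, 25.0 and 25.8 after IL-1β, against 31.4, 30.1, 25.0 and 32.4 at baseline. The groups overlapped in both phenotypes, and 7 of 8 mice were lower after IL-1β, all except diabetic mouse 4. The log2 change of -0.34 (SE 0.15) did not pass (limma adjusted p = 0.158). It passed in 4 of 23 alternatives: without diabetic baseline 4 (-0.42, limma adjusted p = 0.0326), without both portions of diabetic mouse 4 (-0.51, adjusted p = 0.00861), scaled by background (-0.61, adjusted p = 0.0454) and with the deposited fold in place of reads (-0.40, adjusted p = 0.0328). Region 1 had a change of -0.19 (SE 0.16, adjusted p = 0.528). Their local background stood near the library's lowest, at up to 1.36 times it for region 1 and 1.74 times it for region 2.

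Regions that lacked a peak in some libraries were compared by calls. With Fisher's exact test (two-sided) on 8 IL-1β against 8 baseline libraries, 0 of the 31 member regions and 0 of all 83972 regions (0.0%) passed after Benjamini-Hochberg adjustment. At an unadjusted p under 0.05, 921 regions (1.1%) gained and 2545 (3.03%) lost calls. Cpa3 region 1, upstream of the start site, had a peak in 2 of 8 IL-1β libraries (diabetic IL-1β 4 and control IL-1β 4), against 8 of 8 baseline libraries (exact p = 0.00699, adjusted p = 0.664). A loss of at least 6 libraries was seen at 0.941% of all regions. Its summits held 8 and 9 reads in those IL-1β libraries and 7 to 15 reads in baseline libraries. Il1rl1 region 6, 15342 bp into the gene, had a peak in 6 of 8 IL-1β libraries, against 1 of 8 baseline libraries (exact p = 0.0406, adjusted p = 0.98). A gain of at least 5 was seen at 1.1% of all regions. Il1rl1 region 3 and Ms4a2 region 3 each had a peak in 4 of 8 IL-1β and 0 of 8 baseline libraries, and a gain of at least 4 was seen at 1.98% of all regions. Over all regions, 44.7% were called in fewer IL-1β than baseline libraries and 14.9% in more. In 3 other call settings the difference in share of libraries, IL-1β minus baseline, ran from -0.75 to -0.25 at Cpa3 region 1. It ran from 0.125 to 0.625 at Il1rl1 region 6, 0.375 to 0.5 at Il1rl1 region 3 and 0.0 to 0.5 at Ms4a2 region 3.

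Called regions were also counted per gene and tested as a share of all regions called in the library, with an exact permutation test within phenotype over 11769 genes with at least 3 regions. No member passed after Benjamini-Hochberg adjustment, and 0 of all genes did (0.0%). Cpa3 had 1.25 ± 0.886 called regions in IL-1β libraries and 3.12 ± 0.835 in baseline libraries (SD, n = 8 each). The exact permutation p was 0.00449 on the share (adjusted p = 0.125) and 0.00327 on the counts themselves (adjusted p = 0.387). Il1rl1 had 6.5 ± 1.51 called regions in IL-1β libraries and 5.75 ± 0.707 in baseline libraries. Its exact permutation p was 0.00571 on the share (adjusted p = 0.138) and 0.327 on the counts (adjusted p = 0.789).

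The second comparison asks whether diabetes changed the same regions. In reads, 0 of the 9 member regions passed for diabetic against control at baseline or after IL-1β, and 0 of all 24955 regions did (limma, 0.0%). At an unadjusted p under 0.05, 0 of the 9 passed at either time, against 2943 of all regions at baseline and 1086 after IL-1β. The lowest log2 difference was -0.43 (SE 0.24, adjusted p = 0.435), at Hdc region 1 at baseline. There diabetic baseline libraries held 30.9 ± 10.6 scaled reads and control baseline libraries 39.9 ± 5.82 (SD, n = 4 each). Local background differed by -0.48 to 0.04 at baseline, with 0 of 9 past the test and 5 at an unadjusted p under 0.05, all with lower values in diabetic mice, against 3796 of all 24955 regions. Without diabetic baseline 4 none of these 5 had an unadjusted p under 0.05 (0 of 9 past the test), and Hdc region 1 differed by -0.24 in background and -0.18 in reads. Without diabetic baseline 1, 4 member regions were lower in diabetic mice (Hdc regions 1, 3 and 5 and the Fcer1g start site), as were 1179 of all 24955 regions, with 335 higher. Shared regions of neutrophil markers had a median log2 difference in reads of -0.35 at baseline, with 0 of 10 past the test, and their part was not tested.

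The call pattern that differed most by phenotype was at Cpa3 region 3 (chr3:20223327-20223683), 18691 bp into the gene. A peak was listed in 4 of 4 diabetic IL-1β and 4 of 4 diabetic baseline libraries, against 0 of 4 control IL-1β and 1 of 4 control baseline libraries. Its summits held 9, 14, 9 and 9 reads in diabetic IL-1β libraries 1 to 4 and 8, 9, 9 and 8 in diabetic baseline libraries, against 10 reads in control baseline 3. All 4 diabetic mice thus had it in both portions, and 1 of 4 control mice had it in 1 portion. Fisher's exact test over 8 against 8 libraries gave p = 0.0014 (two-sided, adjusted p = 1.0), and over the 4 against 4 IL-1β libraries p = 0.0286 (adjusted p = 1.0), the smallest that design allows. Portions of 1 mouse are not independent, and the pooled test was added after the calls had been seen. A gain of at least 7 libraries was seen at 2 of all 83972 regions (0.00238%), while a loss of at least 7 was seen at 10. At a −log10 q of at least 5 the region was called in 1 diabetic and 0 control libraries, since its summits lie near the lower limit of listing. The adjacent region 4 (chr3:20222911-20223238) did have peaks in control mice, in 3 of 4 control baseline and 0 of 4 control IL-1β libraries. It was called in 3 of 4 diabetic baseline and 2 of 4 diabetic IL-1β libraries. Whether regions 3 and 4 are separate sites was not tested. Over all regions 0 passed after adjustment (0.0%), and 150 (0.179%) gained and 380 (0.453%) lost calls at an unadjusted p under 0.05.

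Among other genes of mast cells and basophils, shared regions were tested in the same fit for IL-1β against baseline. Of granule and mediator genes 1 of 12 regions fell and 0 rose, of receptors and signalling genes 3 of 38 rose and 2 fell, against 6.42% risen and 3.4% fallen over all regions, of transcription factors 0 of 27 passed, and of cytokines 1 of 3 rose. In all 4 gene lists 0 regions passed for diabetic against control.

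The region that fell among granule genes was at Srgn, the proteoglycan core that packs granule contents. It held 58.0 ± 6.82 scaled reads in IL-1β libraries and 78.1 ± 6.59 in baseline libraries (SD, n = 8 each; log2 change -0.43, SE 0.08, limma adjusted p = 0.000847). The other 4 shared regions of Srgn did not pass. Hpgds, which makes prostaglandin D2, had 30.8 ± 5.92 scaled reads in IL-1β libraries and 23.9 ± 7.36 in baseline libraries (log2 change 0.41, limma adjusted p = 0.0744).

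Among receptors and signalling genes, 1 region each rose at Itgb7, an integrin chain that mast cell progenitors use for homing (log2 change 0.57, limma adjusted p = 0.00041), Lat2, an adaptor of the IgE receptor (0.52, adjusted p = 0.000542), and Syk, the kinase recruited by the receptor's gamma chain (0.43, adjusted p = 0.0061). The Itgb7 region also lies within 10 kb of Rarg and the Lat2 region within 10 kb of Rfc2. At Cd200r3, an activating receptor of basophils and mast cells, 1 of 8 shared regions fell (log2 change -0.49, limma adjusted p = 0.017). At Il1rap, the co-receptor that both IL-1β and interleukin-33 signalling use, 1 of 3 fell (-0.37, adjusted p = 0.017). The cytokine region that rose lies within 10 kb of both Ccl3 and Ccl4 (0.43, adjusted p = 0.0327). Among transcription factors the highest absolute changes were 0.32 at Runx1 (limma adjusted p = 0.0508) and -0.21 at Stat5b (adjusted p = 0.478). Among marker regions of other marrow cells, 2 of 10 monocyte, 1 of 8 B cell and 1 of 15 dendritic cell regions rose, and 0 of 10 neutrophil, 0 of 11 erythroid and 0 of 7 stem and progenitor regions passed the test. Their part in the changes at the member genes was not tested.

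By the number of called regions per library, the 6 genes summed were most like Rgs7bp, Mta3 and Galnt2, with Pearson correlations of 0.923, 0.923 and 0.913 over 16 libraries among 11383 genes. The sum also followed the number of all called regions, with a correlation of 0.831. The part of read depth in these values was not tested.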

How the data were processed

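Peak lists of 16 ATAC-seq libraries (50000 cells each, 4 libraries in each of 4 groups) were analysed. The submitters' processing notes name build mm10 and, with no role or order, MACS2 2.1.1, Trim Galore 1.8, DiffBind 2.4.8, Bowtie2 2.2.6, edgeR and FastQC 0.11.3; read shifting, duplicate removal and the width of the local background window are not given in the sources used here. The deposited lists give, per summit called in 1 library, a display score, the fold (ratio) over local background, −log10 p, −log10 q and the summit position. The score was not tested.

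Summit reads and local background were recovered from the deposited fold and −log10 p, within 0.001 on the −log10 p scale. Regions are merged peaks called in at least 2 libraries. Reads at the highest summit, on the log2 scale and scaled to equal medians, were tested with limma 3.58.1 (trend, R 4.3.3) over 24955 regions with a peak in all 16 libraries, and calls with Fisher's exact test (scipy 1.17.1), each with Benjamini-Hochberg adjustment at 0.05 over all regions tested. Restriction to regions called in every library leaves out regions that open or close fully, which only the calls cover. Fits were checked on simulated data. Peaks were 37543 to 72525 per library; total read depth is unknown. P-values of limma rest on the spread between libraries. Without the mouse as a block, the fit treats the portions of 1 mouse as independent. Fisher's exact test counts called libraries, also as if independent, and measures no spread between mice.

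The design text states that each mouse sample was divided, so libraries of the same number within a phenotype are paired. The correlation of their deviations was 0.40, 0.19, -0.04 and 0.33 in diabetic mice 1 to 4 and 0.42, 0.36, 0.01 and 0.07 in control mice 1 to 4. The fit without the mouse as a block was kept as the main one.

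The members, gene lists and motifs were chosen with earlier results of these data known. Named beside the members are genes of the mast cell and basophil lists with a region past the test, the 2 genes of each list with the largest absolute IL-1β change, and the 3 genes most like the members. Sequences are RefSeq promoter windows of GRCm38.p6; no genome sequence was used, so peak sequences are not shown. Added after values had been seen were the tests of local background, of all 8 diabetic against all 8 control libraries, and without both portions of diabetic mouse 4.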

Additional observations from a re-analysis of the deposited data

Results flagged for a closer look

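At Hdc region 3, control baseline 4 held 84.4 scaled reads, apart from the other control baseline libraries at 75.4, 75.8 and 76.0. Its gap to the nearest library was 0.930 of the group's range, above Dixon's critical value for 4 samples. It was 1 of 36 groups of libraries examined, and chance alone marks about 1 in 20 such groups.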

How the results depend on the processing

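Member regions past the IL-1β test in reads numbered 2, against 4 with the mouse as a replicate block (2 higher, 2 lower), 4 when libraries were scaled by background (0 higher, 4 lower) and 0 to 6 when 1 library was left out. Over all regions 1603 rose and 848 fell, against 2398 and 1330 with the block, 203 and 2343 when scaled by background, which moved the median of all regions to -0.24, and 2775 and 1473 without diabetic baseline 4. Within diabetic mice 0 members passed (0 to 1 with a library left out, 1 without both portions of diabetic mouse 4), and within control mice 0 (0 to 1 with a library left out, 1 with the block, 1 without both portions of diabetic mouse 4). Calls lost when 1 library was left out stand beside their results.

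The direction turned at Fcer1g region 5 when scaled by background (-0.13) and at Hdc regions 1, 2, 3 and 5 when the deposited fold replaced reads (0.16, 0.32, 0.18 and 0.10), since the fold divides reads by local background. In calls, the difference in share of libraries turned to 0.125 at Cpa3 region 2 (diabetic against control, −log10 q of at least 5), at Cpa3 region 3 (IL-1β against baseline) and at Il1rl1 region 6 (diabetic against control), the last 2 at −log10 q of at least 5 and at equal list length; the cause was not tested.

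For local background, 4 member regions passed for IL-1β against baseline and 3 to 5 with a library left out. Over all regions 2556 rose and 2181 fell, against 348 and 2345 without scaling to equal medians, which turned the 3 Fcer1g regions negative. Within diabetic mice 0 passed, against 3 with the block, 0 to 4 with a library left out and 3 without both portions of diabetic mouse 4. Within control mice 3 passed, against 1 without scaling, 5 with the block, 1 to 5 with a library left out and 5 without both portions of diabetic mouse 4. For diabetic against control at baseline 0 passed, and 0 to 4 with a library left out. The gene body alone held 18 member regions and a window of 50 kb held 71, against 31. Peaks below 5 to 7 summit reads are not listed, so an uncalled region at Cpa3, Ms4a2 or Fcer1a shows only that no peak was listed at this depth.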
